A study of Mus musculus with 8 samples.

Results

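The genes that copy the genome in S phase were followed in single hematopoietic stem cells (HSCs) of mice labelled wild type (WT) or Med23-/- (KO). The members were 59 genes named by their place in DNA replication, and all 59 of the 59 were among the 10720 genes of the expression table. Both groups were adult C57BL/6 mice carrying floxed Med23 alleles and the bone marrow was their source. The WT group lacked Cre (Mx1-cre- Med23 L/L) and the KO group carried it (Mx1-cre+ Med23 L/L). Mx1-cre is switched on by interferon, here through injection of poly(I:C), and is not confined to HSCs, so other blood cells and other organs can lose the gene too. Poly(I:C) itself is known to drive HSCs into cycle, and the sources used here do not state, for these particular cells, when after injection they were taken. Cells were sorted as lineage-negative Sca1+ c-Kit+ cells with CD150 but without CD34 or CD48, picked one by one, and their RNA was counted at the 3' end by unique molecular identifiers (UMIs), 1 per captured molecule. The labels list 4 libraries of each genotype, but the columns of the table tell only the genotype apart. Each genotype was therefore a single pool, no difference below has a replicate check, and no p-value was computed.

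Replication starts in G1, when the origin recognition complex, Cdc6 and Cdt1 load the ring-shaped MCM helicase onto DNA. At the G1/S boundary, cyclin E with Cdk2 releases E2F transcription factors, which switch on many replication genes, and Cdc45 and the GINS complex then join the ring to make an active helicase. Primase with polymerase alpha lays primers, polymerases delta and epsilon extend them, PCNA clamps the polymerases to DNA, and Fen1 and Lig1 finish the lagging strand. HSCs are known to be mostly quiescent, so in a sorted HSC pool these transcripts are expected to lie mainly in a small set of cells that have entered the cycle.

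After a minimum of 2000 genes and 20000 UMIs per cell, 259 WT cells and 234 KO cells were kept. They held 20038 to 496293 UMIs in the WT pool (median 59649) and 20027 to 467384 in the KO pool (median 50281). All 16 of the 16 HSC marker genes examined were in the table, at a summed level of 1807 UMIs per 1000000 UMIs (CPM) in the WT pool and 1782 CPM in the KO pool. The near-equal sums held opposite differences. Slamf1, which encodes the sort marker CD150, had 837 UMIs in WT and 132 in KO cells, at a log2 ratio (KO over WT) of -2.26, and Vwf 206 and 7 UMIs at -4.47, while Mecom stood at 1.14 and Meis1 at 0.59, so the pools differed in HSC markers too. The part of this in the results was not tested. Med23 itself was not lower in the cells labelled KO. It had 122 UMIs in WT and 117 in KO cells, for a log2 ratio of 0.35 (95% counting interval -0.03 to 0.73), and -0.04 without the single KO cell with the most Med23 UMIs. Each cell was also thinned at random to 20000 UMIs. A Med23 UMI was then found in 11.2% of WT cells (7.63 to 15.7%) and 6.84% of KO cells (3.96 to 10.9%). These intervals overlap. The 3' tag need not lie in the deleted exons, so these values may check nothing, and the genotypes are given below as labelled. Transcripts of oocytes, such as Zp3, which encodes a coat protein of the egg, were found in many WT cells. The 28 of 31 oocyte markers in the table summed to 3111 CPM in the pool labelled WT (0 to 66344 CPM in single cells) and to 144 CPM in the pool labelled KO (0 to 1486 CPM). Over 1000 CPM of them were found in 70 WT cells, with 26.4% of that pool's UMIs, and in 4 KO cells, with 0.822%. Their part in the results was not tested. Sums are given with and without these 74 cells, called oocyte-transcript cells below. Single genes are given so mainly where leaving them out changed the side of the interval or moved the value. The remaining cells were not free of these transcripts, with a median of 221 CPM in WT (at most 979) and 50.6 CPM in KO (at most 998). Among the remaining cells the oocyte markers still had a summed log2 ratio of -0.98.

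As 1 sum, the replication genes were a little lower in the pool labelled KO. They held 100858 UMIs (4696 CPM) in WT and 71486 UMIs (4418 CPM) in KO, which is a log2 ratio of -0.09 (-0.10 to -0.07). Leaving out the 74 cells with oocyte transcripts, the same ratio was -0.19 (-0.20 to -0.17). Intervals of levels and ratios cover the counting of UMIs, and those of shares of cells the sampling of cells within a pool, and neither covers the difference between mice or libraries. Gene by gene, the median log2 ratio was -0.06, beside 0.02 over all genes of the table, and -0.17 beside 0.04 without the oocyte-transcript cells. The ratio was below 0 for 33 of the 59 genes, against 48.1% of all genes, and for 38 of the 59 genes without those cells, against 47.1%. The interval lay wholly below equal levels for 26 members (35.7% of all genes), wholly above for 14 (39.2%) and held equality for 19 (25.1%). Without the oocyte-transcript cells, 30 members lay below (33.8% of all genes) and 9 above (39.7%). A difference of at least 2-fold was met downward by 1 member, Gins3, against 7.94% of all genes, and upward by none, against 6.98%. Without the oocyte-transcript cells, 2 members passed 2-fold downward, Gins3 and Pold2 (6.69% of all genes), and 1 upward, Ccne1 (8.79%). The shift of the sum was thus small and most single members moved by much less than 2-fold.

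Because single deep cells hold many UMIs, the interval of each member was also formed without the oocyte-transcript cells, without the cell with the most UMIs of that gene, and with every cell thinned at random to 20000 UMIs. Of the 26 members below equality, 12 stayed below in all of these, namely Gins3, Prim2, Pold2, Clspn, Orc5, Tyms, Dut, Slbp, Ccne2, Rpa2, Pole4 and Mcm6. Of the 14 above, 6 stayed above, namely Mcm4, Pole, Rfc3, Orc2, Rfc2 and Gins4. The other 22 lost their side under at least 1 of the alternatives. Thinning alone kept 15 of the 26 and 6 of the 14, with far fewer UMIs per gene. The share of all genes that keep their side under the same alternatives was not counted. These counts therefore describe the members and do not set them apart from other genes.

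**Figure D1:**
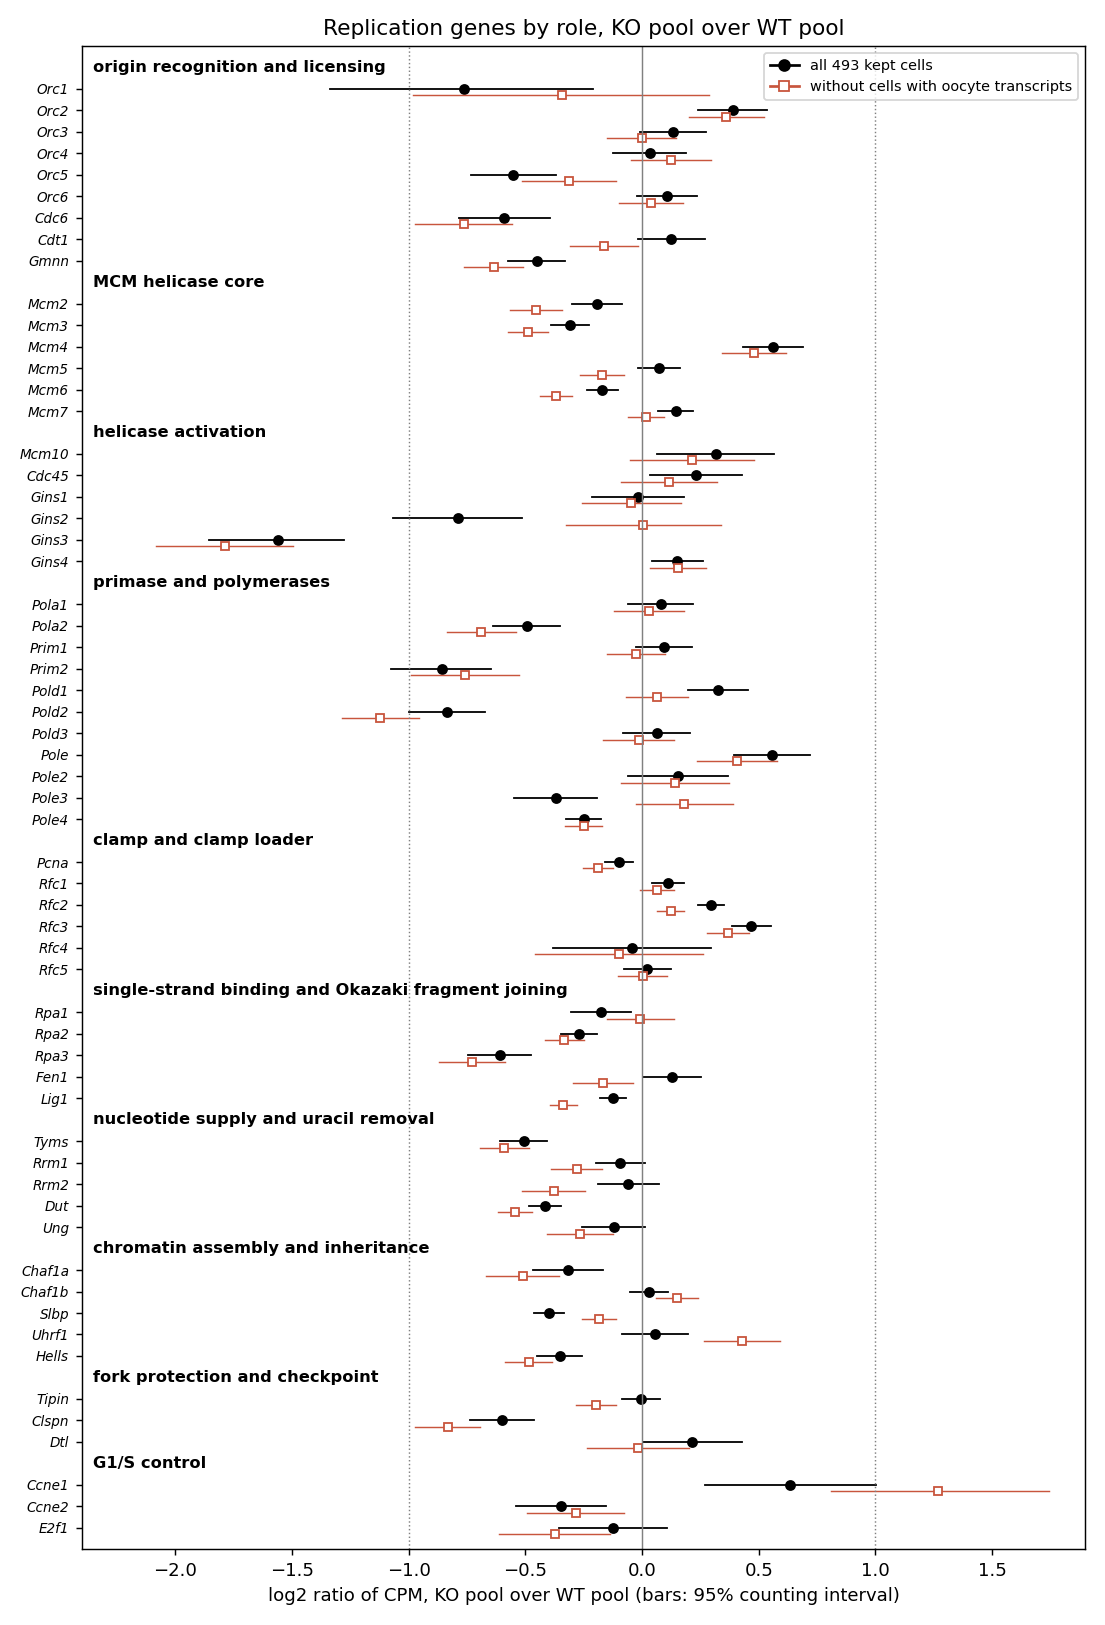
Log2 ratio of CPM (KO pool over WT pool, x axis) for each of the 59 replication genes, grouped by role (y axis), with bars for the 95% counting interval. Filled circles are all 493 kept cells, and open squares leave out the 74 cells with over 1000 CPM of oocyte markers. Dotted lines mark 2-fold. Most points lie within 2-fold, Gins3 lies farthest to the left at -1.56, and the open squares of the MCM and nucleotide groups lie mainly left of the circles.

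The distribution over single cells showed where this difference lay. In the WT pool, the summed level of the members ran from 370 CPM in the lowest cell through a median of 2645 CPM to 16637 CPM in the highest. In the KO pool it ran from 658 CPM through a median of 2201 CPM to 17288 CPM. The ratio of the medians, KO over WT, was 0.832, and the pools overlapped over nearly their whole range. In the lower 50% of the cells of each pool the mean level was 1823 CPM in WT and 1621 CPM in KO, a log2 ratio of -0.17. Between the 50th and 90th percentile it was 4928 and 4148 CPM, a log2 ratio of -0.25. In the top 10% the order turned, with 11220 CPM in 25 WT cells and 12775 CPM in 24 KO cells, a log2 ratio of 0.19. Without the oocyte-transcript cells the same 3 bands gave -0.19, -0.34 and 0.13. The top 10% of the cells held 28.1% of all member UMIs of the WT pool and 33.8% of those of the KO pool.

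Cut levels chosen after the distribution was seen put this in counts of cells. With each cell thinned to 20000 UMIs, 66 WT cells (25.5%, exact binomial 95% interval 20.3 to 31.3%) and 49 KO cells (20.9%, 15.9 to 26.7%) had at least 5000 CPM of the members. At least 10000 CPM was reached by 16 WT cells (6.18%, 3.57 to 9.84%) and by 21 KO cells (8.97%, 5.64 to 13.4%). Without the oocyte-transcript cells the shares were 28.0% and 20.9% at the lower level and 7.94% and 9.13% at the higher one. Without thinning, but with those cells, they were 26.3% and 20.9% at the lower level and 7.34% and 9.40% at the higher one. Within 10% of the lower level lay 13 WT and 8 KO cells, and within 10% of the higher one 11 and 7, so the shares move with the level chosen.

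**Figure D2:**
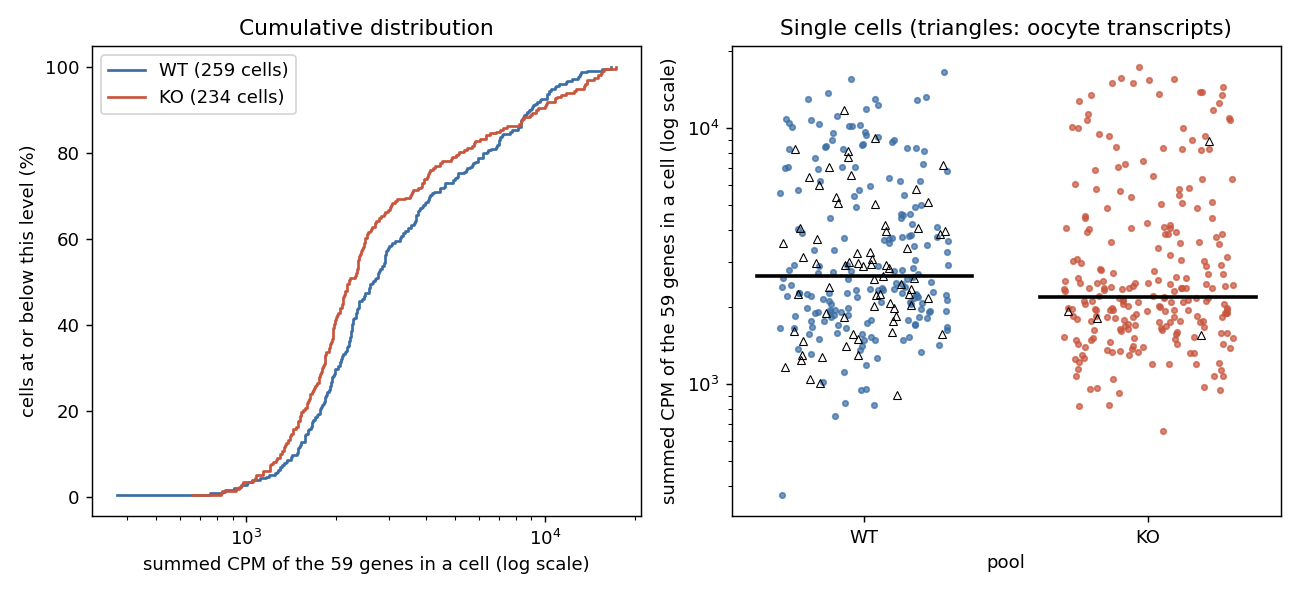
Summed CPM of the 59 replication genes in each kept cell, as a cumulative percentage of cells (left, log x axis) and as single cells by pool (right, log y axis, horizontal lines at the medians of 2645 and 2201 CPM; triangles are cells with over 1000 CPM of oocyte markers). The KO curve lies to the left of the WT curve over most of the range and crosses it among the highest cells.

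Origin recognition and licensing genes were divided. The summed log2 ratio of the 9 genes was -0.08 (-0.13 to -0.03), and -0.16 without the oocyte-transcript cells. Gmnn, which encodes geminin, the inhibitor of Cdt1 that blocks a second loading of MCM rings, counted 1537 UMIs among WT and 847 among KO cells, or 71.6 and 52.3 CPM, and its log2 ratio was -0.45 (-0.57 to -0.33). Its single cells reached 741 CPM in WT and 508 CPM in KO, and without the oocyte-transcript cells its log2 ratio was -0.64, but with thinned cells it was -0.08 (-0.34 to 0.18). Cdc6, the loader that acts with Cdt1, had 651 and 326 UMIs and a log2 ratio of -0.59 (-0.79 to -0.40), which was -0.76 without the oocyte-transcript cells but 0.17 (-0.20 to 0.54) with thinned cells, on 124 and 126 UMIs. Cdt1 itself had 890 and 732 UMIs and a log2 ratio of 0.13 (-0.02 to 0.27), which turned to -0.16 without the oocyte-transcript cells. Among the subunits of the origin recognition complex, Orc2 was higher in KO at 0.39 (0.24 to 0.54), or 0.36 without the oocyte-transcript cells, and Orc5 lower at -0.55 (-0.73 to -0.37), or -0.31 without them, while the intervals of Orc3, Orc4 and Orc6 held equality. Orc6 had 1106 and 897 UMIs and a log2 ratio of 0.11, or -0.17 without the KO cell that held 176 of its UMIs. Orc1 was the scarcest member, with 90 and 40 UMIs and a log2 ratio of -0.76 (-1.34 to -0.21), which became -0.34 without the oocyte-transcript cells.

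The 6 subunits of the MCM ring, Mcm2 to Mcm7, did not move as a unit. Together they held 16125 and 11809 UMIs in WT and KO, 751 and 730 CPM, at a log2 ratio of -0.04 (-0.08 to -0.01), and -0.23 (-0.26 to -0.19) without the oocyte-transcript cells. Mcm6 had 4787 and 3207 UMIs (223 and 198 CPM), a log2 ratio of -0.17 (-0.23 to -0.10), and -0.37 without the oocyte-transcript cells. Mcm3 stood at -0.31 (-0.39 to -0.22) and Mcm2 at -0.19 (-0.30 to -0.09), or -0.49 and -0.45 without those cells. With thinned cells the intervals of both held equality, at -0.12 and -0.09. Mcm4 was higher in the KO pool, with 952 and 1058 UMIs (44.3 and 65.4 CPM) and a log2 ratio of 0.56 (0.43 to 0.69), or 0.48 without the oocyte-transcript cells. Mcm7 stood at 0.14 (0.07 to 0.22), and at 0.02 (-0.06 to 0.10) without those cells. Mcm5, at 0.07, changed sign without them, to -0.17. At 20000 UMIs per cell, a UMI of all 6 subunits was found in 34 of 259 WT cells (13.1%, 9.27 to 17.9%) and in 33 of 234 KO cells (14.1%, 9.91 to 19.2%), and no subunit in 21 cells of each pool (8.11% and 8.97%). Without the oocyte-transcript cells the order turned, with all 6 in 16.4% of WT and 13.9% of KO cells, and none in 5.82% and 9.13%.

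The promoters of the MCM genes are shown because E2F factors are known to bind MCM promoters and the members were named for S phase. Windows of 300 bases, 250 before the RefSeq transcription start to 50 after it, were read from RefSeq on GRCm38.p6 and written 5' to 3' on the strand of the gene. Capitals mark 4 spellings of the E2F site, TTTCCCGC, TTTCGCGC, TTTGCCGC and TTTGGCGC, on either strand. Windows of 5 MCM ring genes were in the table used, and those of Mcm3 (chr1:20820263-20820562, minus strand), Mcm5 (chr8:75109259-75109558, plus strand), Mcm6 (chr1:128359656-128359955, minus strand) and Mcm7 (chr5:138171834-138172133, minus strand) held such a word. In Mcm5 and Mcm6 words of opposite strands overlap, which makes 1 longer run of capitals.
Mcm3: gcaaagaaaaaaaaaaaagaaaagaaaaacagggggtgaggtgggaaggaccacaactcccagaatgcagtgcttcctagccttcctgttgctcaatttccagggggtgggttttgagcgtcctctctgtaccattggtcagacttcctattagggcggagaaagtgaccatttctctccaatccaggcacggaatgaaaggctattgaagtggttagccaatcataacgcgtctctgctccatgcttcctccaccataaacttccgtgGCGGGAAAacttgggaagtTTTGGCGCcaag
Mcm5: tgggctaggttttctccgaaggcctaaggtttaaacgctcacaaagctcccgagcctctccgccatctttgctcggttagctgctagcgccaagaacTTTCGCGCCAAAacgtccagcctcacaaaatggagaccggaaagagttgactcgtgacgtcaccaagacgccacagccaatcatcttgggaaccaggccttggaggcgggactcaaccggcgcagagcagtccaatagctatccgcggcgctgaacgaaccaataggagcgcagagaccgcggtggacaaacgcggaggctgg
Mcm6: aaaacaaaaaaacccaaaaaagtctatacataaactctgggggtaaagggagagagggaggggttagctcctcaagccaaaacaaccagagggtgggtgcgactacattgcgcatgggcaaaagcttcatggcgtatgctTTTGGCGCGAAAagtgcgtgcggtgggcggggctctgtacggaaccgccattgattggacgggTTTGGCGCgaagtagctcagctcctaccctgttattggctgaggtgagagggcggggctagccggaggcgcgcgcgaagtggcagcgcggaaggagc
Mcm7: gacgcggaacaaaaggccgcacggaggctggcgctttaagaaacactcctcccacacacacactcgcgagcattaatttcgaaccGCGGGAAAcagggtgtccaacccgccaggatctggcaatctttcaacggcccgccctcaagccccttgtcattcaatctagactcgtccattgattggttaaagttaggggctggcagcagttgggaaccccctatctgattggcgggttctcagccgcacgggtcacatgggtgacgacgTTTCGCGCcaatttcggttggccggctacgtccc
The window of Mcm2 held none of these words, which says only that these letters are absent from it.

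Among the genes that turn the loaded ring into a working helicase, Gins3 had the largest difference of all members. GINS is a complex of 4 subunits, and Gins3 counted 497 UMIs among WT and 127 among KO cells, 23.1 CPM (21.2 to 25.3) and 7.85 CPM (6.54 to 9.34), at a log2 ratio of -1.56 (-1.85 to -1.28). One WT cell held 105 of them, and leaving it out gave -1.24. With every cell thinned to 20000 UMIs it was -1.18 (-1.74 to -0.65), and without the oocyte-transcript cells -1.78. Yet the share of cells with a Gins3 UMI at equal depth was 10.8% in WT (28 cells) and 8.55% in KO (20 cells), and its highest cell held 1695 CPM in WT and 276 CPM in KO. At equal depth the shares thus differed less than the level. Without thinning they were further apart, at 17.4% in WT and 9.83% in KO. Without the oocyte-transcript cells they were 12.7% and 8.70% at equal depth. None of the other GINS subunits reached the difference of Gins3. Gins1 stood at -0.02 (-0.21 to 0.18), but at -0.35 (-0.57 to -0.14) without the KO cell that held 85 of its UMIs. Gins4 was at 0.15 (0.04 to 0.26). Gins2, at -0.79 (-1.07 to -0.51), had 57.5% of its WT UMIs in the oocyte-transcript cells, and without them its log2 ratio was 0.01. With thinned cells Gins2 was at -0.83 (-1.47 to -0.22), and without its highest WT cell at -0.57 (-0.86 to -0.29). Cdc45, which joins GINS on the ring, had 459 and 406 UMIs and a log2 ratio of 0.23 (0.04 to 0.43), and -0.16 without the KO cell that held 105 of them. Mcm10, which helps to start the helicase, was at 0.32 (0.07 to 0.57), but at -0.06 (-0.34 to 0.21) without the KO cell that held 63 of its 258 UMIs there and at 0.21 (-0.05 to 0.48) without the oocyte-transcript cells. The Gins3 window (chr8:95633309-95633608, plus strand) is shown because it belongs to the member with the largest difference and held 1 E2F word.
Gins3: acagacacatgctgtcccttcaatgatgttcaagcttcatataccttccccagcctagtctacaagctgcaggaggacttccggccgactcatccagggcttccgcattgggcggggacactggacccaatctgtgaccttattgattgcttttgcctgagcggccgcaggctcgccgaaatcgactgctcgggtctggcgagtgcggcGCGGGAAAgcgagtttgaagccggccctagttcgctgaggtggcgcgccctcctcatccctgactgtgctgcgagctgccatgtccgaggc

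The DNA polymerases differed by subunit rather than by enzyme. The 11 genes of primase and the polymerases had a summed log2 ratio of -0.13 (-0.17 to -0.09), and -0.20 without the oocyte-transcript cells. Of the primase pair, the catalytic subunit Prim1 had 1306 and 1051 UMIs and a log2 ratio of 0.10 (-0.02 to 0.21). Without the KO cell that held 176 of its UMIs, Prim1 was at -0.13 (-0.25 to -0.003). The partner Prim2 had 618 and 257 UMIs (28.8 and 15.9 CPM) and -0.86 (-1.07 to -0.65), or -0.76 without the oocyte-transcript cells. Of polymerase alpha, Pola1 stood at 0.08 (-0.06 to 0.22) and Pola2, its second subunit, at -0.49 (-0.64 to -0.35), or -0.69 without the oocyte-transcript cells and -0.18 (-0.46 to 0.11) with thinned cells. Of polymerase delta, the catalytic subunit Pold1 was higher in KO at 0.33 (0.20 to 0.45), but at 0.06 without the oocyte-transcript cells. Its partner Pold2 had 1058 and 447 UMIs (49.3 and 27.6 CPM) and a log2 ratio of -0.83 (-0.997 to -0.67), which widened to -1.12 without those cells and narrowed to -0.36 (-0.70 to -0.02) with every cell thinned to 20000 UMIs. Of polymerase epsilon, the catalytic subunit Pole was higher at 0.56 (0.39 to 0.72), with 595 and 659 UMIs, and Pole4, a small histone-fold subunit, was lower at -0.25 (-0.33 to -0.17), with 3701 and 2345 UMIs. The catalytic genes Pola1, Pold1 and Pole thus had higher ratios than the partners Pola2, Pold2 and Pole4, with and without the oocyte-transcript cells. Of the other partners, Pold3 was at 0.06 (-0.08 to 0.21) and Pole2 at 0.15 (-0.06 to 0.37). Without the highest cell of each gene, Pold3 was at 0.32 (0.17 to 0.47), above Pold1 at 0.19 (0.06 to 0.32). With thinned cells Pola1 and Pola2 lay closer, at -0.10 and -0.18. Pole3, which pairs with Pole4, changed sign from -0.37 to 0.18 without the oocyte-transcript cells.

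The clamp loader was the only role group whose sum was higher in the KO pool. With PCNA, its 6 genes held 19049 and 15942 UMIs (887 and 985 CPM), a log2 ratio of 0.15 (0.12 to 0.18), and 0.05 (0.02 to 0.08) without the oocyte-transcript cells. Rfc2 had 5464 and 5053 UMIs (254 and 312 CPM) and a log2 ratio of 0.30 (0.24 to 0.35), or 0.12 without those cells. Rfc3 had 2306 and 2404 UMIs (107 and 149 CPM) and 0.47 (0.39 to 0.55), or 0.37 without those cells and 0.25 without the KO cell that held 392 of its UMIs. Pcna, the clamp that these proteins load, was slightly lower, with 5370 and 3784 UMIs (250 and 234 CPM) and -0.10 (-0.16 to -0.04), and it stood at -0.01 without its highest WT cell. The intervals of Rfc4 and Rfc5 held equality.

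Genes that coat single strands and join Okazaki fragments were lower as a group, at -0.18 (-0.22 to -0.14), and -0.32 without the oocyte-transcript cells. Of the trimeric single-strand binding protein RPA, Rpa1 was at -0.17 (-0.30 to -0.05), Rpa2 at -0.27 (-0.35 to -0.19) and Rpa3 at -0.61 (-0.75 to -0.47). Rpa1 was at -0.01 (-0.15 to 0.14) without the oocyte-transcript cells, and thinned cells put Rpa1 at 0.11, Rpa2 at -0.42 and Rpa3 at -0.29, so the order of the subunits depended on the summing. Rpa3 had 1343 and 663 UMIs, 62.5 and 41.0 CPM. Lig1, the ligase that seals the fragments, had 6165 and 4262 UMIs (287 and 263 CPM) and a log2 ratio of -0.12 (-0.18 to -0.07). One WT cell held 729 of its UMIs, and leaving it out gave 0.03, whereas without the oocyte-transcript cells it was -0.34. Fen1, the flap nuclease, stood at 0.13 (0.01 to 0.25) and changed sign to -0.17 without those cells.

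Nucleotide supply was the group with the lowest sum. Its 5 genes held 11018 and 6728 UMIs (513 and 416 CPM), a log2 ratio of -0.30 (-0.35 to -0.26), and -0.46 (-0.50 to -0.41) without the oocyte-transcript cells, where all 5 intervals lay below equality. Dut, the dUTPase that keeps uracil out of DNA, had 4636 and 2621 UMIs (216 and 162 CPM) and a log2 ratio of -0.41 (-0.48 to -0.34), or -0.55 without the oocyte-transcript cells. Tyms, thymidylate synthase, which makes the thymidine nucleotide from the product of Dut, had 2309 and 1225 UMIs (108 and 75.7 CPM) and -0.51 (-0.61 to -0.41). It was at -0.59 without the oocyte-transcript cells and at -0.28 without the WT cell that held 369 of its UMIs. The subunits of ribonucleotide reductase, Rrm1 and Rrm2, stood at -0.09 (-0.20 to 0.01) and -0.06 (-0.19 to 0.07), and Ung, which removes uracil from DNA, at -0.12 (-0.26 to 0.01). Rrm1 and Rrm2 stood lower, at -0.28 and -0.38, without the oocyte-transcript cells, and at -0.30 and -0.53 without the KO cell with the most UMIs of each, while thinned cells put Rrm1 at 0.11 and Rrm2 at -0.34. Dut and Tyms, neighbours in 1 pathway, were the members of this group that stayed below equality under every way of summing.

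Genes that rebuild chromatin behind the fork were lower in sum, at -0.24 (-0.28 to -0.20), and -0.14 without the oocyte-transcript cells. Slbp, which binds the stem loop of histone messenger RNA, had 5241 and 2998 UMIs (244 and 185 CPM) and a log2 ratio of -0.40 (-0.46 to -0.33). Of its WT UMIs 36.3% lay in the oocyte-transcript cells, and without them its log2 ratio was -0.18. Of the CAF-1 complex, which deposits histones, Chaf1a was at -0.32 (-0.47 to -0.17) and Chaf1b at 0.03 (-0.05 to 0.11), with 2856 and 2198 UMIs of Chaf1b. Hells, a chromatin remodeller needed for DNA methylation, was at -0.35 (-0.45 to -0.26). Without the WT cell with the most UMIs of each, Hells was at -0.08 (-0.18 to 0.02) and Chaf1a at -0.03 (-0.18 to 0.13), while thinned cells gave -0.26 and -0.62. Uhrf1, which guides the maintenance methyltransferase to new DNA, was at 0.06, and at 0.43 without the oocyte-transcript cells, which held 42.7% of its WT UMIs.

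Of the genes that protect the fork, Clspn, the adaptor through which stalled forks activate Chk1, had 1324 and 658 UMIs (61.7 and 40.7 CPM) and a log2 ratio of -0.60 (-0.74 to -0.46). It was at -0.83 without the oocyte-transcript cells and at -0.29 without the WT cell that held 276 of its UMIs. Tipin, which travels with the fork, had 2784 and 2093 UMIs (130 and 129 CPM) and a log2 ratio of 0.00 (-0.09 to 0.08), or -0.20 without the oocyte-transcript cells. Dtl, which directs the breakdown of Cdt1 on replicating DNA, was at 0.22 (0.01 to 0.43) and at -0.02 without them. The Clspn window (chr4:126556730-126557029, plus strand) is shown because Clspn and Gins3 had a word, among the 6 members with the largest drops and a mean of at least 0.5 UMI per cell. Of the others, Prim2 and Gins2 had no window to read, and the windows of Pold2 and Rpa3 held no word.
Clspn: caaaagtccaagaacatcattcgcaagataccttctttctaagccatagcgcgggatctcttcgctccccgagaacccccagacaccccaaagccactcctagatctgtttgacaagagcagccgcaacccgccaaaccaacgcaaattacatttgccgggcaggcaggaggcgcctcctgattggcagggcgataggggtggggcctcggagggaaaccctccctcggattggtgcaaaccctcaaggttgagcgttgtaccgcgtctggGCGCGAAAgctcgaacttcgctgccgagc

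The G1/S regulators were scarce. Ccne2, a cyclin E gene, had 592 and 351 UMIs and a log2 ratio of -0.35 (-0.54 to -0.15), which became -0.93 without the KO cell that held 120 of its UMIs. Ccne1, the other cyclin E gene, had 117 and 137 UMIs and the largest log2 ratio upward, 0.64 (0.27 to 1.005). It was at 1.27 (0.81 to 1.74) without the oocyte-transcript cells, which held 52.1% of its WT UMIs, and at 0.01 without the KO cell that held 50 of its UMIs. E2f1, the transcription factor, had 383 and 265 UMIs and stood at -0.12 (-0.35 to 0.11), but at 0.59 without the WT cell that held 154 of them. The direction for E2f1 and the difference for Ccne1 thus rested on 1 cell each.

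Detection per cell gave a measure that 1 deep cell cannot set. At 20000 UMIs per cell, a mean of 19.5 of the 59 members had a UMI in a WT cell (median 15, range 3 to 52) and 17.6 in a KO cell (median 13, range 3 to 49). Without thinning the difference of the means was -3.88 members. The percentage of cells with a count was lower in KO for 47 of the 59 members, against 53.1% of all genes, and higher for 12. The median difference was -3.50 percentage points, beside -0.32 over all genes. It was lower for 47 members too without the oocyte-transcript cells, against 53.2% of all genes. Exact binomial intervals, which cover the sampling of cells in these pools and not mice, did not meet for 3 members, each lower in KO, against 4.15% of all genes, a share near that of the members. Dut was found in 68.0% of WT cells (61.9 to 73.6%) and in 52.6% of KO cells (46.0 to 59.1%), the largest difference. Rpa2 was found in 53.3% (47.0 to 59.5%) and 40.2% (33.8 to 46.8%), and Orc5 in 21.2% (16.4 to 26.7%) and 11.5% (7.74 to 16.3%). Without thinning these shares were 77.6% and 68.4% for Dut, 62.5% and 50.9% for Rpa2, and 31.7% and 19.2% for Orc5. Without the oocyte-transcript cells they were 69.3% and 52.6%, 54.5% and 40.4%, and 18.0% and 11.7% at equal depth. Gins4 had the largest share difference upward, from 33.6% of WT to 41.0% of KO cells.

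**Figure D3:**
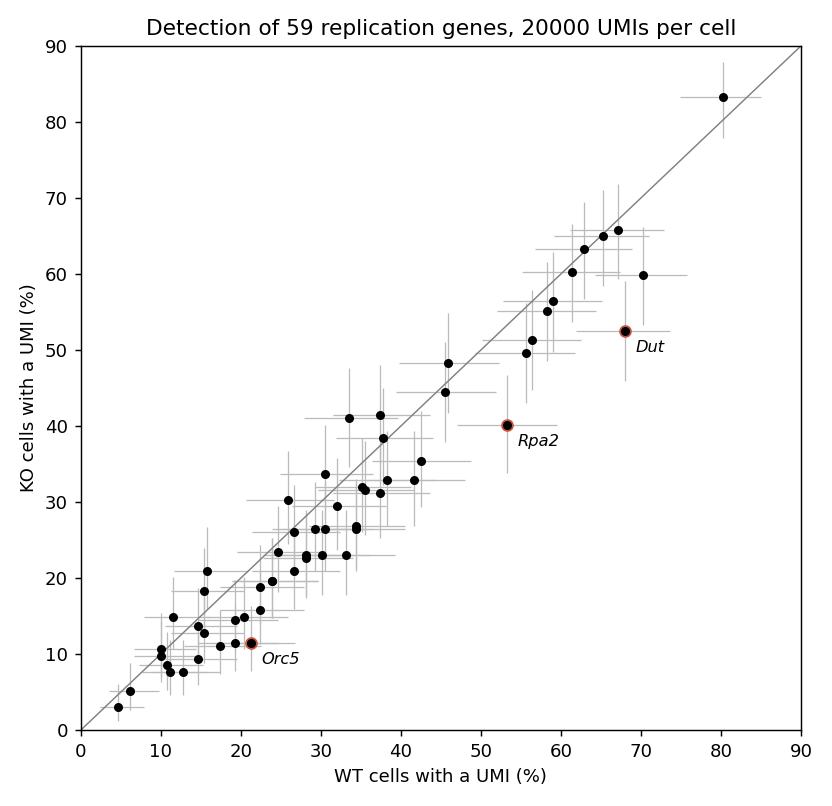
Percent of cells with at least 1 UMI at 20000 UMIs per cell for each of the 59 replication genes, WT pool on the x axis and KO pool on the y axis, with exact binomial 95% intervals and a line at equal shares. Most points lie below the line by less than their intervals, and the coloured points are Dut, Rpa2 and Orc5, whose intervals, over cells of 1 pool each, do not meet.

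The members varied together from cell to cell, but to unequal degrees. Spearman's rho between the MCM ring sum and the sum of the other members, over UMIs thinned to 20000, was 0.62 over 259 WT cells and 0.57 over 234 KO cells. The cells of a pool share library and preparation, so these are descriptions. Without the oocyte-transcript cells, over 189 WT and 230 KO cells, it was 0.67 and 0.57. For single members, rho with the sum of the others was taken over these 189 and 230 cells. It had a median of 0.40 in WT (-0.03 to 0.62) and 0.37 in KO (-0.02 to 0.58). It was over 0.3 for 42 and 38 members and under 0.1 for 5 and 5. No share of all genes stands beside these counts, so they do not set the members apart. Among genes outside the members, Ppia reached 0.56 in WT and 0.39 in KO with the member sum. To put this as levels, the same cells were ranked in each pool by the sum of the other 58 members. The top 10% was then set against the lower 50%. The ratio could be formed for 39 members with at least 20 UMIs in the lower 50% of cells of both pools, with a median of 5.50 in WT and 6.03 in KO. It was over 5 in both pools for 20 of these, and the interval lay above 1 in both pools for 32. These counts of ratios also have no share of all genes beside them, so they too describe the members only.

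Lig1, Hells and Mcm5 had some of the steepest contrasts. Lig1 had 113 UMIs in the 95 lower WT cells and 408 in the 19 top WT cells, an 18.1-fold higher mean (14.6 to 22.4), and in KO the fold was 24.9 (20.3 to 30.9). For Hells it was 19.1 (12.0 to 31.7) and 23.0 (16.3 to 33.2), and for Mcm5 14.6 (10.5 to 20.6) and 19.2 (14.0 to 26.6). Members that were nearly silent in the lower 50% were steeper still, but rest on few UMIs there. Cdt1 had 17 UMIs in the lower and 75 in the top WT cells, and 12 and 73 in KO. Rrm2 had 14 and 75 in WT and 7 and 98 in KO, and Ccne2 3 and 32 in WT and 2 and 42 in KO. At the other end stood Orc3, Orc4 and Orc5 of the origin recognition complex and Pole and Pole4 of polymerase epsilon, whereas Orc6 was at 5.98 and 7.42. Orc5 gave 0.55 (0.19 to 1.26) in WT and 0.85 (0.37 to 1.75) in KO, Orc4 0.92 and 0.84, Orc3 1.20 and 1.78, Pole 1.28 and 0.66, and Pole4 1.73 and 1.31. These 5 were the members under 2 in both pools. For Orc3 in KO (1.14 to 2.71) and Pole4 in WT (1.32 to 2.24) the interval lay above 1. The levels of these 5 rose less in the high cells than those of Lig1, Tyms and the MCM transcripts, which were several-fold higher there. Pcna lay between, at 6.94 in WT and 6.33 in KO.

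**Figure D4:**
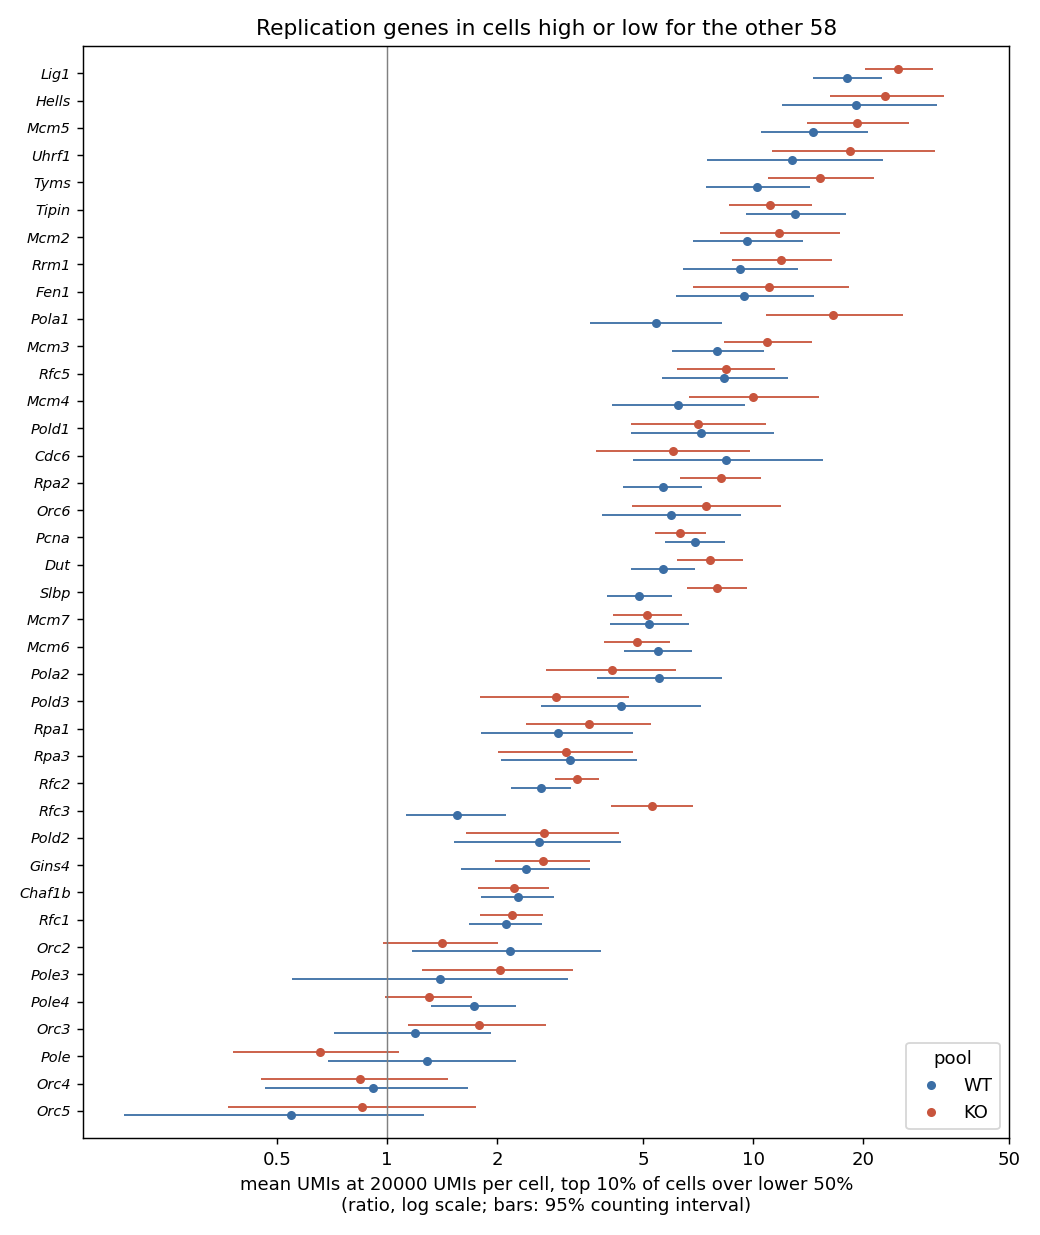
Mean UMIs of each of 39 replication genes (y axis) in the top 10% of cells over the lower 50% (x axis, ratio on a log scale). Cells were ranked by the sum of the other 58 members at 20000 UMIs per cell, and bars give the 95% counting interval. The 74 cells with over 1000 CPM of oocyte markers are left out. Orc3, Orc4, Orc5, Pole and Pole4 lie near 1, and Lig1, Hells and Mcm5 lie above 10 in both pools.

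Cells high for the replication genes also held more transcripts of G2 and mitosis. The 38 genes of G2 and mitosis in the table, among them Mki67, a proliferation marker, had a median level of 1047 CPM in the lower 50% of WT cells and 3468 CPM in the top 10%, and of 902 and 3557 CPM in KO. Spearman's rho between both sums was 0.50 in WT and 0.43 in KO, and rho of the member sum with depth was 0.31 and 0.22. In the pool sums, the G2 and mitosis genes differed more than the replication genes, at a log2 ratio of -0.55 beside -0.09. Without the oocyte-transcript cells the sums lay closer, at -0.30 beside -0.19. Gene by gene, the median log2 ratio of the 38 genes was -0.67, and -0.52 without those cells. At least 2-fold lower were 12 of the 38 genes (7.94% of all genes), or 4 of the 38 without those cells (6.69%). Mki67 had 2154 and 1553 UMIs and a log2 ratio of -0.06 (-0.16 to 0.03), or -0.43 without the KO cell that held 365 of its UMIs.

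**Figure D5:**
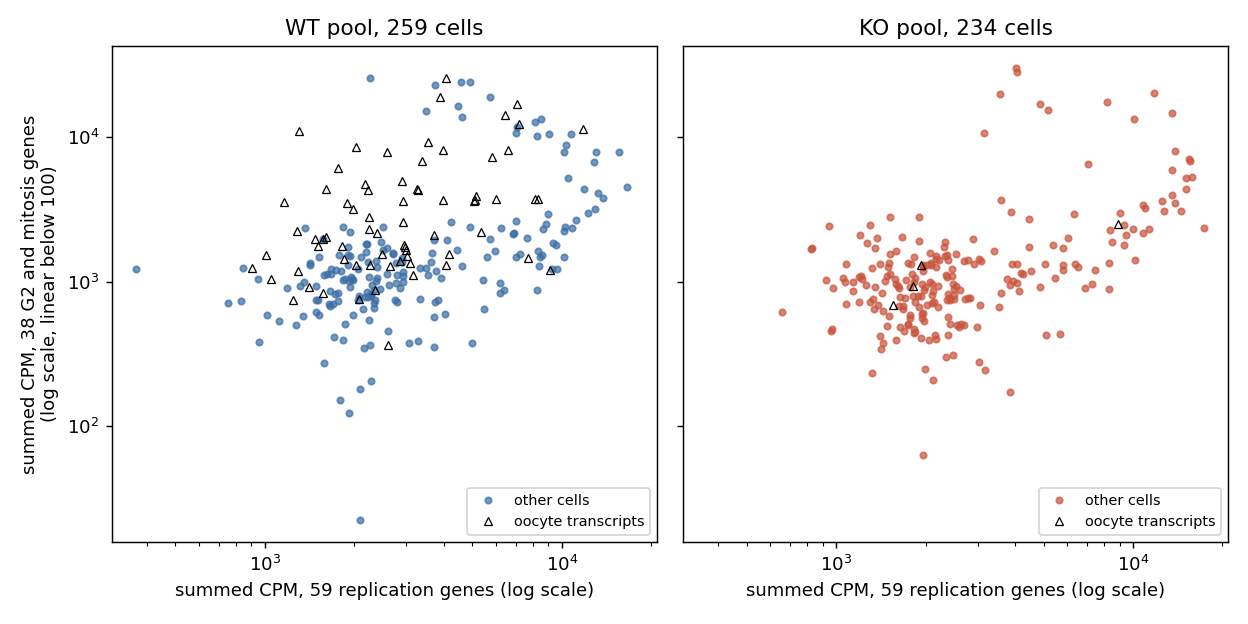
Summed CPM of the 38 G2 and mitosis genes (y axis) against summed CPM of the 59 replication genes (x axis) in each kept cell, both on log scales, WT pool left and KO pool right. Triangles, 70 in WT and 4 in KO, are cells with over 1000 CPM of oocyte markers. The cells with the most replication transcripts lie above 1000 CPM of mitosis transcripts in both pools.

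An E2F word was found in the promoter windows of 20 of the 49 members with a window (40.8% of genes). Of all genes with a window in the RefSeq table, 2.6% had one, and of the genes measured here, 4.87%. Counted by window, the shares were 35.6% for the members, 2.26% for all windows and 4.06% for the genes measured here. By role, it was found for 4 of 5 MCM ring genes, 4 of 8 licensing genes, 5 of 9 polymerase genes and both fork genes with a window, and for none of the 5 nucleotide supply genes and none of the G1/S genes. Without the oocyte-transcript cells, the members with a word had a median rho with the other members of 0.42 in WT and 0.42 in KO. For the 29 members without a word it was 0.35 and 0.36. The median log2 ratios with and without a word were 0.06 and -0.10 over all kept cells. They were -0.17 and -0.18 without the oocyte-transcript cells. Members with and without a word therefore overlapped in both measures, and the match is a description of letters only.

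Further replication genes, outside the 59, gave a second view of the pathway. Of 62 listed, 55 were in the table, with a median log2 ratio of -0.19, and -0.22 without the oocyte-transcript cells. The interval lay below equality for 27 of the 55 genes (35.7% of all genes) and above it for 13 (39.2%), beside 26 and 14 of the 59 members. At least 2-fold lower were 2 of the 55 (7.94% of all genes). They were Mcm8, a relative of the MCM ring genes that acts in repair, at -1.94 (342 and 67 UMIs), and Dna2, a flap nuclease, at -1.40 (235 and 67 UMIs). At least 2-fold higher were 2 (6.98% of all genes). They were E2f7, a repressor of E2F targets, at 1.70 (133 and 325 UMIs), and Atr, the kinase that answers stalled forks, at 1.10 (136 and 219 UMIs). Without the oocyte-transcript cells Atr fell under 2-fold, at 0.95, and Rif1 passed it, at 1.007 (0.70 in all kept cells). All of these genes were named after their values were seen.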

How the data were processed

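Single HSCs were profiled in 8 libraries, 4 per genotype per the labels. The authors aligned the reads to the mm9 transcriptome, removed duplicates by UMI, left out genes with a low mean count, and deposited log2 of the normalized count plus 1. The aligner and the scaling are not given in the sources used here. Back on the linear scale, every value of a cell was a multiple of that cell's lowest nonzero value, so dividing by the latter returned UMI counts (100% whole within 0.01, largest distance 0.00302). The study's minimum of 2000 genes and 20000 UMIs, applied to the 10720 genes of the table, kept 493 of 586 cells. Doublets were not called, because each cell was hand picked.

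UMIs were summed per genotype and given as CPM. Pooled counts under 3 were raised to 3 for ratios. Ratios and shares have exact 95% Clopper-Pearson intervals and CPM exact Poisson intervals, for counting error or the sampling of cells only, and depth was 20027 to 496293 UMIs per cell. Python 3.11.15 with numpy 2.4.6, pandas 2.3.3 and scipy 1.17.1 was used, and the scripts were tested on simulated data.

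The members and gene lists were chosen with earlier results of these data known. The text names, per role, the 2 members with the most UMIs and the 6 members with the largest ratio each way among those averaging 0.5 UMI or more over the kept cells, and, outside the members, Med23, Zp3, Mki67 and the 5 genes most like the member sum. Other genes were named after their values were seen. Marker lists of other cells held members of opposite direction, with log2 ratios from -2.04 to 8.77 for erythroid cells (4 of 14 genes in the table, median -1.02), from -1.09 to 1.69 for neutrophils (3 of 11, median -0.90), from 0.26 to 0.64 for lymphocytes (2 of 13, median 0.45) and from -6.02 to 1.45 for stroma and endothelium (7 of 10, median -1.92). Alternatives were other cell filters, thinning, scalings (median of ratios and TMM, computed by formula with 30% and 5% trimmed), the authors' normalized values, a fold of 1.5 and leaving out each gene's highest cell. Promoter windows came from RefSeq on GRCm38.p6, with 49 of the 59 members matched by symbol, and were not combined with mm9 coordinates.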

Additional observations from a re-analysis of the deposited data

How the results depend on the processing

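No paired analysis was possible because libraries are not told apart in the column names, and for the same reason no library could be left out in turn. The summary values below kept their direction under the alternatives run. The share of cells with all 6 MCM subunits, given above, did not keep it without the oocyte-transcript cells. The log2 ratio of the member sum, -0.088, moved to -0.055 when 3000 genes and 30000 UMIs were required, -0.187 without the oocyte-transcript cells, -0.116 with median-of-ratios scaling, -0.117 with TMM scaling, -0.290 from the authors' values and -0.029 after dropping each gene's highest cell. The authors' values also moved the median of the members to -0.32, beside -0.14 for all genes, and that of the other replication genes to -0.40. The count of members at least 2-fold lower, 1, became 2 without the oocyte-transcript cells, 3 with thinned cells (7.65% of all genes), 4 with the authors' values (8.55%) and 8 at a fold of 1.5 (15.5% of all genes). The count at least 2-fold higher, 0, became 1 without the oocyte-transcript cells and 1 at a fold of 1.5 (17.2% of all genes). The ratio of the per-cell levels, 0.832 from medians, was 0.939 from means. The difference in members detected per cell, -1.92, was -1.06 at 10000 UMIs, -2.76 at 30000 UMIs, -3.88 without thinning, -1.01 with at least 2 UMIs and -2.61 without the oocyte-transcript cells. The cause of these shifts was not tested, beyond the depth and the cells each alternative uses. Signs of single members were less stable than the sum, changing for 9 members without the oocyte-transcript cells, 18 without the highest cell of each gene, 20 with the authors' values and 21 with thinned cells. Depth limits members such as Orc1, with a mean of 0.264 UMI per kept cell.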

Other observations

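Genes of quiescence and G1 control were mixed between the pools. Of 20 listed, 17 were in the table, with a median log2 ratio of -0.07, or -0.20 without the oocyte-transcript cells. Their summed ratio went the other way, at 0.21, or 0.18 without those cells. Ccnd2 alone held 22898 and 22584 of the 45357 and 39662 UMIs. The interval lay below equality for 9 of the 17 (35.7% of all genes) and above it for 8 (39.2%). Without those cells the counts were again 9 (33.8%) and 8 (39.7%). Btg2, an antiproliferative gene, was at 1.19 (641 and 1105 UMIs), and Cdkn1b, which encodes the Cdk inhibitor p27, at 0.86 (597 and 816 UMIs). Cdkn1a, which encodes p21, was at 0.73 (510 and 638 UMIs), or 1.47 without the oocyte-transcript cells. Cdkn1c, which encodes p57 and is known for HSC quiescence, was at -0.17 (770 and 516 UMIs), or -0.38 without those cells. Ccnd3, a cyclin D gene, was at 1.93 on 72 and 206 UMIs, and E2f4, an E2F factor that represses its targets in quiescent cells, at -1.13 on 801 and 275 UMIs. These 6 were named after their values were seen.

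The genes whose thinned UMIs followed the member sum most closely, over 419 cells without oocyte transcripts, were Cenph (rho 0.57), Hmgn2 (0.55), Cenpm (0.54), Timeless (0.54) and Tuba1b (0.54), out of 9267 genes compared. Cenph and Cenpm encode centromere proteins, Hmgn2 a nucleosome-binding protein, Timeless the partner of Tipin and Tuba1b an alpha tubulin. Hmgn2 and Tuba1b have near-identical copies in the genome, so their counts are uncertain. Over the same cells, Rfc3 followed the other members unequally in the pools, with rho 0.12 in WT and 0.41 in KO. Its means were 1.55-fold (1.13 to 2.11) and 5.30-fold (4.09 to 6.87) higher in the top 10% of cells than in the lower 50%. Whether this differs between mice was not tested, and it was picked out after its values were seen.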
